A study of Mus musculus with 18 samples.

Results

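Macrophages and microglia spend arginine along competing routes, and the 10 genes described here encode the enzymes and carriers of those routes together with the enzyme that makes itaconate. Nos2, Arg1, Arg2, Slc7a1, Slc7a2, Ass1, Asl, Odc1, Gch1 and Acod1 were chosen by name, for the function of their products. Earlier results of these data were known when these genes were chosen. All 10 were present among the 55487 gene identifiers measured. RNA was sequenced from BV2 cells, a mouse microglial line immortalised with a retrovirus that carries v-raf and v-myc, so each group comes from a single cell line in culture and not from brain tissue. The cells were given 10 µM oxyhemoglobin, the oxygen-bearing form of the blood pigment, for 12 h or 24 h, or were untreated (0 h), and their RNA was separated into a nuclear and a cytoplasmic fraction by detergent lysis and centrifugation.

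There were 6 groups: nuclear RNA at 12 h, at 24 h and at 0 h, and cytoplasmic RNA at 12 h, at 24 h and at 0 h. Each was labelled as holding 3 libraries, 18 in all, and no label says whether the 3 came from separate cultures. The deposited count table has 1 column per group, the mean of its 3 libraries, so no spread between replicates can be given and no difference could be tested against one. No untreated group was kept for 12 h or 24 h, so the effect of oxyhemoglobin and that of time in culture cannot be told apart. A lower level in such bulk RNA cannot be told apart from fewer cells that make the transcript.

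Values below are reads summed over the 3 libraries (the deposited mean times 3), and levels are normalised CPM, counts per 1000000 reads of a group, scaled within a fraction by the TMM method (trimmed mean of M values). Log2 ratios carry 95% intervals that cover counting error only, which is smaller than the error of an experiment, and reads of a PCR-amplified library are not independent molecules. A gene was called where it differed by at least 2-fold and its interval excluded 0. The nuclear groups held 14652566 summed reads at 0 h, 15899566 at 12 h and 16031875 at 24 h, and the cytoplasmic groups 22379595, 16537318 and 19537309. All 12 microglia and macrophage markers had reads in 5 groups and 11 in cytoplasmic RNA at 12 h, where Aif1 was at 0. Their summed level was 977 to 1376 CPM. In cytoplasmic RNA at 12 h, Cd14 alone made up 642 of 1290 CPM. A list of 6 endothelial genes summed to 325 to 438 CPM over the 6 groups, nearly all of it Flt1 at 318 to 437 CPM. The 6 nuclear RNAs led by Malat1 summed to 52200 to 58660 CPM in nuclear RNA and 1998 to 3579 CPM in cytoplasmic RNA. A list of 6 fibroblast and muscle genes reached 28.5 CPM in cytoplasmic RNA at 12 h, mostly Actc1 at 22.3 CPM, with Dcn at 0, against 0.0447 to 1.70 CPM in the other groups, and its part in the cytoplasmic results at 12 h was not tested.

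Arginine enters the cell through the cationic amino acid carriers encoded by Slc7a1 and Slc7a2. Nos2, the inducible nitric oxide synthase, turns it into nitric oxide and citrulline and needs tetrahydrobiopterin, whose synthesis begins with the enzyme of Gch1; Ass1 and Asl rebuild arginine from citrulline. The arginases, cytosolic Arg1 and mitochondrial Arg2, split arginine into urea and ornithine, and Odc1, ornithine decarboxylase, turns ornithine into the polyamine putrescine. Acod1 encodes the mitochondrial enzyme that makes itaconate from the citric acid cycle intermediate cis-aconitate. Nos2 and Acod1 are classical genes of inflammatory macrophages, and Arg1 is used as a marker of the alternatively activated state in mice.

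In cells given oxyhemoglobin, Acod1, Nos2 and Odc1 were higher and Arg1 was lower than in untreated cells, in both fractions. Acod1 was 14.8-fold higher in nuclear RNA and 12.1-fold higher in cytoplasmic RNA at 12 h, and 8.07-fold and 5.73-fold higher at 24 h. Nos2 was 6.47-fold higher in nuclear RNA at 12 h and 10.5-fold at 24 h, and Odc1 was 4.06-fold to 4.87-fold higher in every comparison with 0 h. Arg1 was 10.5-fold lower in cytoplasmic RNA at 24 h, the largest decrease among the 10 genes, and about 2-fold lower in nuclear RNA. The 2 carriers, Gch1, Ass1, Asl and Arg2 differed less or in 1 fraction only by this measure, or had too few cytoplasmic reads to compare.

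**Figure D1:**
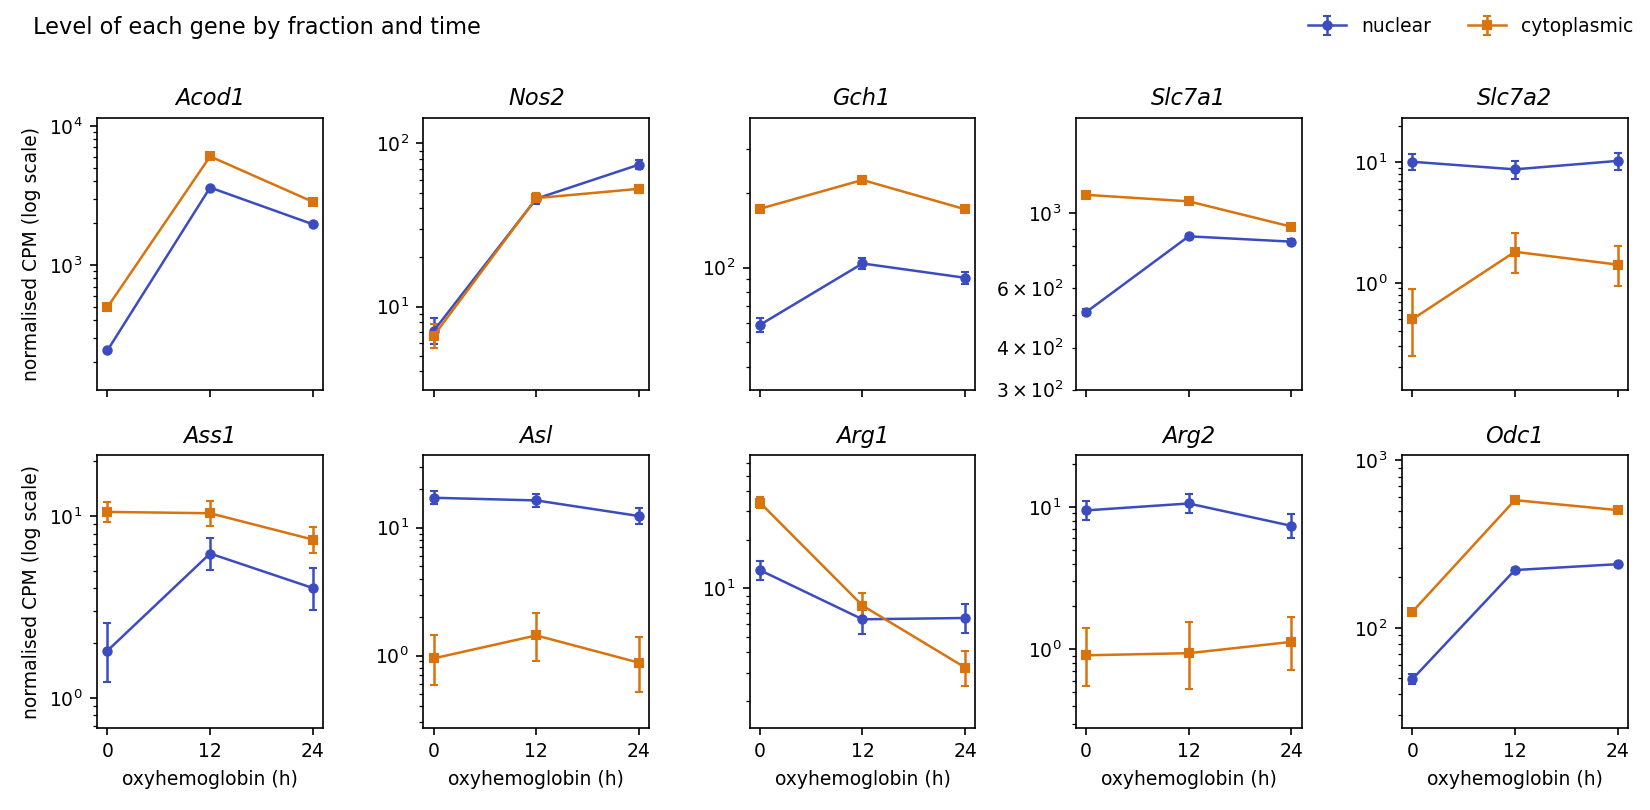
Level of each of the 10 genes in nuclear (circles) and cytoplasmic (squares) RNA at 0, 12 and 24 h, as normalised CPM on a log axis with 95% counting intervals; each fraction was scaled on its own, so the height of one line against the other is not a comparison. Acod1 stood at 3605 CPM in nuclear and 6035 CPM in cytoplasmic RNA at 12 h, and Arg1 is the only gene whose lines descend in both fractions between 0 and 12 h by at least 2-fold.

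Counted over the genes, 4 of 10 were called higher and 1 lower in nuclear RNA at 12 h against 0 h, where 14.6% of the 17295 genes compared were called (7.92% higher, 6.64% lower). At 24 h against 0 h, 4 of 10 were called higher and none lower in nuclear RNA, where 13.6% of all genes were called (7.88% higher, 5.75% lower). In cytoplasmic RNA only 8 of the 10 had enough reads, since Arg2 and Asl fell below the minimum. Of these 8, 4 were called higher and 1 lower at 12 h, against 20.6% of all genes called (11.7% higher, 8.99% lower). At 24 h, again 4 were called higher and 1 lower, against 17.1% of all genes (10.4% higher, 6.72% lower). Both cytoplasmic counts include Slc7a2, which was under the minimum at 0 h and passed only through the 12 h group. Without it, a choice made after seeing the data, 3 of 7 were higher and 1 lower at each time. The 10 genes were chosen with earlier results of these data known, so their counts beside all genes are no test of them. The median log2 ratio of the genes compared was 0.78 and 0.66 in nuclear RNA at 12 h and 24 h, beside medians of all genes of 0.00 and −0.02. In cytoplasmic RNA it was 1.12 and 0.75 with Slc7a2, but 0.38 and −0.01 over the 7 genes without it, beside medians of all genes of −0.04 and −0.06. The split of all calls moved with scaling: 54.4% of those at 12 h and 57.8% at 24 h in nuclear RNA were increases by TMM, but 31.9% and 27.5% by total-count scaling and 31.7% and 12.8% on log2(TPM + 1). In cytoplasmic RNA the shares of increases were 56.5% and 60.7% by TMM and 15.5% and 21.6% on log2(TPM + 1). Acod1, Nos2 and Odc1 kept their calls against 0 h under every alternative tried, and so did Arg1 in cytoplasmic RNA.

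**Figure D2:**
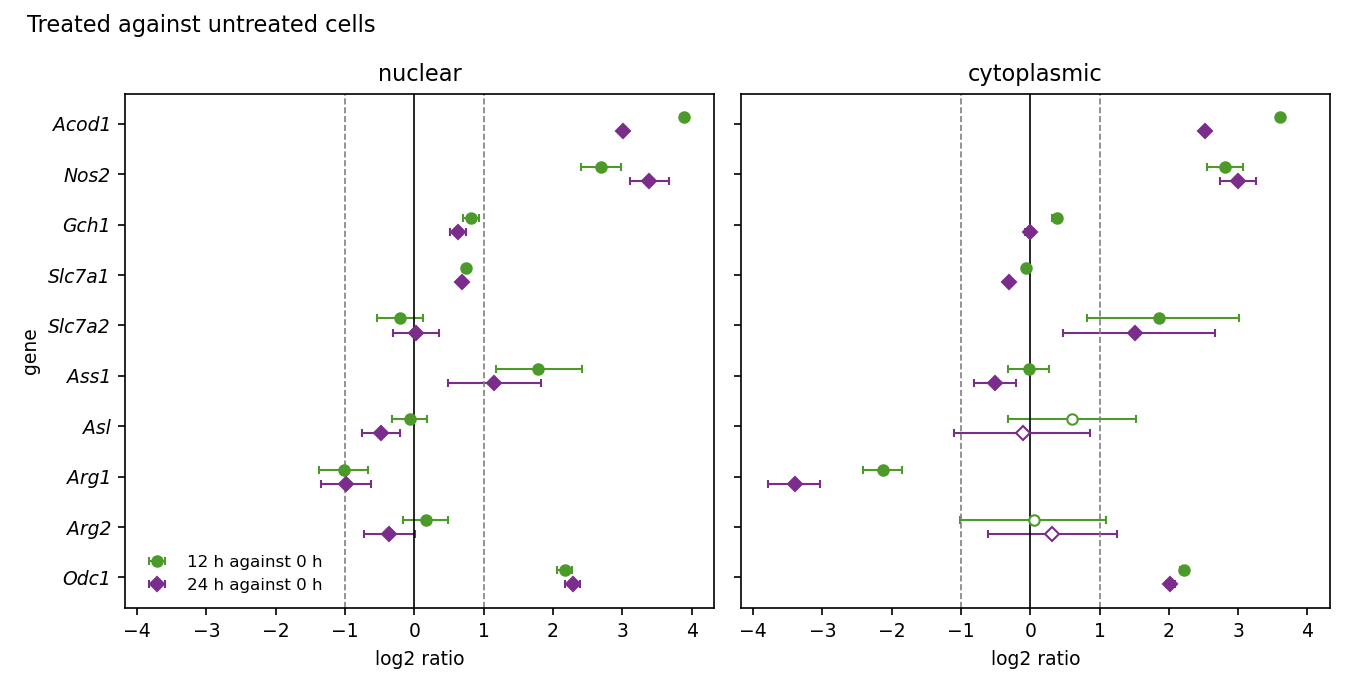
Log2 ratio of treated over untreated cells for each gene at 12 h (circles) and 24 h (diamonds) in nuclear and cytoplasmic RNA, with 95% counting intervals; dashed lines mark 2-fold and open symbols mark genes under the minimum count. Acod1, Nos2 and Odc1 lie beyond the right dashed line in both panels, and Arg1 lies at −2.12 and −3.40 in cytoplasmic RNA.

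The sequence just upstream of the RefSeq start is shown for Acod1, Odc1 and Ass1, the called genes for which RefSeq's promoter table (GRCm38.p6) has an entry. Each run holds the 250 bases before the listed RefSeq start, on the gene's own strand (plus for all 3), with motif matches in capitals. The Acod1 run is chr14:103046762-103047011, the Odc1 run chr12:17544623-17544872 and the Ass1 run chr2:31470020-31470269.
Acod1: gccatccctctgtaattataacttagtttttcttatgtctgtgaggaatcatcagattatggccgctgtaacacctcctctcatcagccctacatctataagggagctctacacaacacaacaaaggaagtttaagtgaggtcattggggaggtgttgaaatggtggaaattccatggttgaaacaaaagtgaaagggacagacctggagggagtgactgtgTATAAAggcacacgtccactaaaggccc
Odc1: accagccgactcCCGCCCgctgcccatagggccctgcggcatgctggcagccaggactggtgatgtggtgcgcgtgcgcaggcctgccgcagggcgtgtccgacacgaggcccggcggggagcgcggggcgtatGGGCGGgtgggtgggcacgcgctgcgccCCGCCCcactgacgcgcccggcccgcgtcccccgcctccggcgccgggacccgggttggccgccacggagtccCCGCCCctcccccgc
Ass1: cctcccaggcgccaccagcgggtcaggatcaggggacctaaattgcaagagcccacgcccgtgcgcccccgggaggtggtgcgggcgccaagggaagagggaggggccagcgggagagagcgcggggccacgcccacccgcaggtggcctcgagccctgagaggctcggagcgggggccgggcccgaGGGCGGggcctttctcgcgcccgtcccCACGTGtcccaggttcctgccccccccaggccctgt

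Capitals in the Acod1 run mark TATAAA, at 28 to 23 bases before the listed start, a match found in 12.4% of the 32851 promoters of the table. In the Odc1 run they mark 4 matches to the GC box GGGCGG or its reverse complement, the nearest at 15 to 10 bases before the start; 32.7% of promoters hold at least 1. The Ass1 run has a GC box at 63 to 58 bases and the E-box CACGTG, found in 6.02% of promoters, at 36 to 31 bases before the start. The 3 runs differ widely in base composition, with 44.4% G and C for Acod1, 80.0% for Odc1 and 75.6% for Ass1, against a median of 52.4% over the table. The other motifs searched on both strands were a kappa-B motif (in 3.9% of promoters), AP-1 TGANTCA (6.75%), the interferon-stimulated element (2.98%), GAS TTCNNNGAA (7.02%), C/EBP TTGCNNAA (9.56%) and the antioxidant element TGACNNNGC (10.2%), and none of them matched in these 3 windows. The Gch1 promoter of the table held a kappa-B match at 10 to 1 bases before its start. It also held the reverse complement of TATAAA at 188 to 183 bases and GC boxes at 118 to 113 and 105 to 100 bases. Of the 2 Slc7a1 promoters, the first held TATAAA at 28 to 23 bases and a GAS match at 146 to 138 bases. The second held matches to AP-1 at 123 to 117, the GC box at 36 to 31 and the antioxidant element at 11 to 3 bases. The gene starts of GENCODE M21 lie 35 bases (Acod1), 79 bases (Odc1) and 63 bases (Ass1) upstream of their RefSeq starts. The Acod1 TATAAA, the nearest Odc1 GC box and both Ass1 matches thus lie inside the genes as GENCODE annotates them. The first Slc7a1 start lies 7089 bases downstream of the GENCODE start, while the second and that of Gch1 coincide with it. A match is a description of letters and no evidence of binding.

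Of the 2 arginine carriers, Slc7a1 had by far the higher RNA level in every group. Slc7a1 (chromosome 5, 148327410 to 148399904, minus strand, in GRCm38 as annotated by GENCODE M21; positions of the other genes are from the same source) encodes the broadly expressed carrier CAT-1. It had 8400, 13157 and 12075 nuclear reads and 25012, 17336 and 18638 cytoplasmic reads at 0, 12 and 24 h. In nuclear RNA its level was 853 and 823 CPM at 12 h and 24 h against 509 CPM at 0 h, log2 ratios of 0.75 (interval 0.71 to 0.79) and 0.69 (0.65 to 0.73). In cytoplasmic RNA it was 1083 and 911 CPM against 1132 CPM at 0 h, log2 ratios of −0.06 (−0.09 to −0.04) and −0.31 (−0.34 to −0.29). None of the 4 ratios passed 2-fold, and their signs were opposite in the 2 fractions. At 12 h, though, the cytoplasmic ratio was close to the median of all genes, −0.04.

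Slc7a2 (chromosome 8, 40862396 to 40922308, plus strand) encodes CAT-2, the carrier that is inducible in macrophages. It had 167, 135 and 151 nuclear reads but only 11, 29 and 29 cytoplasmic reads at 0, 12 and 24 h. The nuclear log2 ratios were −0.21 (interval −0.55 to 0.13) at 12 h and 0.02 (−0.30 to 0.35) at 24 h, so no difference was detectable in nuclear RNA. The cytoplasmic ratios, 1.86 (0.82 to 3.01) and 1.51 (0.47 to 2.66), were called on those few reads, and the gene met the minimum count in the 12 h group only, the group where it is highest. With a pseudocount of 1 CPM both fell below 2-fold, at 0.91 and 0.69. Per kb of exon sequence, Slc7a1 exceeded Slc7a2 by 39.9-fold, 77.2-fold and 63.4-fold in nuclear RNA at 0, 12 and 24 h, and by 474-fold or more in cytoplasmic RNA. Exons of Slc7a2 overlap those of Gm26584 on the other strand over 6.95% of their length.

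A list of 22 genes for the urea cycle, arginine use and transport held Slc3a2, which encodes the heavy chain of the heteromeric amino acid carriers, a branch of the Slc7 family apart from CAT-1 and CAT-2. In cytoplasmic RNA it was at 9.50 and 9.63 CPM at 12 h and 24 h against 3.26 CPM at 0 h, log2 ratios of 1.54 (interval 1.13 to 1.97) and 1.56 (1.17 to 1.97), while its nuclear ratios were 0.34 and 0.26. It was the only 1 of 12 list members called in cytoplasmic RNA at either time (8.33%, against 20.6% and 17.1% of all genes). Agmat, annotated as an agmatinase, was the only 1 of 13 called in nuclear RNA (7.69%, against 14.6% and 13.6% of all genes), where it was lower and under the minimum in the treated groups. The list thus had no more calls than genes at large. The list's median log2 ratio was 0.34 and 0.26 in nuclear RNA and −0.19 and −0.14 in cytoplasmic RNA. Otc and Cps1, the mitochondrial enzymes that complete the urea cycle in liver, had 0 reads in all 6 groups, which allows a level of up to 0.134 to 0.205 CPM.

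Nos2 (chromosome 11, 78920787 to 78960254, plus strand) had 117 nuclear reads at 0 h, 707 at 12 h and 1088 at 24 h. Its level was 45.9 and 74.2 CPM at 12 h and 24 h in nuclear RNA, against 7.09 CPM at 0 h, log2 ratios of 2.69 (interval 2.41 to 2.99) and 3.39 (3.11 to 3.67). Cytoplasmic RNA had 146, 740 and 1078 reads at 0, 12 and 24 h. There the level was 46.2 and 52.7 CPM at 12 h and 24 h against 6.61 CPM at 0 h, log2 ratios of 2.81 (2.55 to 3.07) and 3.00 (2.74 to 3.25). The intervals of the treated groups lay far above those of the untreated group in both fractions. Between the treated times, nuclear Nos2 was 1.62-fold higher at 24 h than at 12 h (log2 ratio 0.69, interval 0.56 to 0.83) and cytoplasmic Nos2 1.14-fold higher (0.19, 0.05 to 0.33), both under 2-fold.

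Nos2 was not the leading nitric oxide synthase in cytoplasmic RNA of untreated cells. Nos1, the neuronal synthase, had 1862 cytoplasmic reads at 0 h, against 146 of Nos2, and per kb of exon Nos2 stood at 0.198 of Nos1 (interval 0.166 to 0.235). At 12 h and 24 h the order was turned, with Nos2 at 9.79 times Nos1 (8.34 to 11.5) and 6.60 times (5.88 to 7.41). In nuclear RNA the ratio was 1.10 (0.874 to 1.37) at 0 h, where the genes could not be told apart, and 21.02 and 24.1 at 12 h and 24 h. These ratios are taken within a group and do not depend on how groups are scaled.

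Nos1 itself was lower after oxyhemoglobin. Its cytoplasmic level was 11.9 and 20.2 CPM at 12 h and 24 h against 84.3 CPM at 0 h, log2 ratios of −2.82 (interval −3.04 to −2.61) and −2.06 (−2.22 to −1.91), and its nuclear ratios were −1.57 and −1.07. Nos3, the endothelial synthase, had 3, 2 and 4 nuclear reads at 0, 12 and 24 h and 0 cytoplasmic reads, so its cytoplasmic level was at most 0.134 to 0.181 CPM. In the list of 22 genes for nitric oxide synthases, their cofactor and targets, which holds Nos1 and Nos3 but not Nos2 or Gch1, 1 of 14 was called higher (Ddah2) and 1 lower (Nos1) in nuclear RNA at 12 h, and Nos1 alone at 24 h. In cytoplasmic RNA 1 of 11 was higher (Cyb5r3) and 1 lower (Nos1) at both times. These are 14.3% and 7.14% of the list in nuclear RNA, beside 14.6% and 13.6% of all genes, and 18.2% in cytoplasmic RNA, beside 20.6% and 17.1%, so the list had about as many calls as genes at large. Ddah2 and Cyb5r3 were under the minimum at 0 h. The list's medians lay between −0.03 and 0.14.

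**Figure D3:**
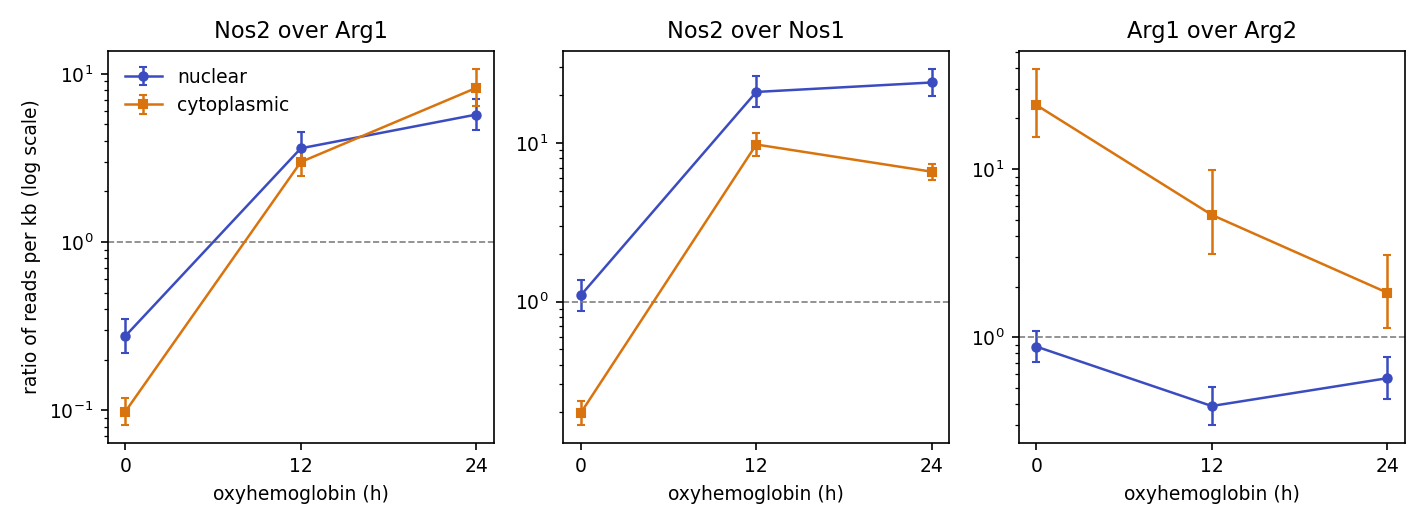
Ratios of reads per kb of exon within each group for Nos2 over Arg1, Nos2 over Nos1 and Arg1 over Arg2, in nuclear (circles) and cytoplasmic (squares) RNA at 0, 12 and 24 h, on log axes with 95% counting intervals; the dashed line marks equal levels. Nos2 over Arg1 lies below 1 at 0 h and above 1 at 12 h and 24 h in both fractions, and Arg1 over Arg2 falls in cytoplasmic RNA through 24.1, 5.34 and 1.84.

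Gch1 (chromosome 14, 47153895 to 47189413, minus strand), whose enzyme starts the synthesis of the cofactor of Nos2, differed less than Nos2 did. It had 971, 1600 and 1334 nuclear reads and 3802, 3595 and 3503 cytoplasmic reads at 0, 12 and 24 h. The nuclear log2 ratios were 0.82 (interval 0.70 to 0.94) at 12 h and 0.63 (0.51 to 0.75) at 24 h. In cytoplasmic RNA they were 0.38 (0.32 to 0.45) and −0.01 (−0.07 to 0.06). The first of these was −0.35 on log2(TPM + 1), a turn of direction. The median of all genes on that scale was lower still, at −0.51. No ratio reached 2-fold, and at 24 h the cytoplasmic level, 171 CPM, was close to the 172 CPM of untreated cells.

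RNA of Ass1 and Asl, whose enzymes rebuild arginine from citrulline, was scarce. Ass1 had more reads in cytoplasmic RNA and Asl more in nuclear RNA. Ass1 (chromosome 2, 31470207 to 31520672, plus strand), argininosuccinate synthase, had 30, 96 and 59 nuclear reads and 233, 166 and 152 cytoplasmic reads at 0, 12 and 24 h. Its nuclear level was 6.23 and 4.02 CPM at 12 h and 24 h against 1.82 CPM at 0 h, log2 ratios of 1.78 (interval 1.17 to 2.42) and 1.15 (0.49 to 1.83), both called. The call at 24 h was lost under total-count scaling (0.85), with a pseudocount of 1 CPM (0.83) and on log2(TPM + 1) (0.32), and the call at 12 h on log2(TPM + 1) (0.98). Cytoplasmic Ass1 was at 10.4 and 7.43 CPM against 10.6 CPM at 0 h, log2 ratios of −0.02 (−0.32 to 0.27) and −0.51 (−0.81 to −0.20), so the increase of the nuclear level had no counterpart there.

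Ass1 counts are uncertain because 38.6% of its 50-base words also occur in the annotated pseudogene Gm5424, which held 77, 247 and 146 nuclear reads and 392, 432 and 366 cytoplasmic reads at 0, 12 and 24 h, more than Ass1 in each group. With the reads of the pair summed, the nuclear ratios were 1.78 and 1.11, still called. The cytoplasmic ratios became 0.40 (interval 0.24 to 0.56) at 12 h and −0.16 (−0.33 to 0.01) at 24 h, so that the direction at 12 h depends on how such reads are assigned. This sum was chosen after seeing the data.

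Asl (chromosome 5, 130011258 to 130029247, minus strand), argininosuccinate lyase, had 283, 252 and 181 nuclear reads and only 21, 23 and 18 cytoplasmic reads at 0, 12 and 24 h. Its nuclear log2 ratios were −0.07 (interval −0.32 to 0.18) at 12 h and −0.47 (−0.75 to −0.20) at 24 h, both under 2-fold, and in cytoplasmic RNA it was below the minimum. Per kb of exon, Ass1 stood at 0.212 of Asl in nuclear RNA at 0 h, 0.762 at 12 h and 0.652 at 24 h. In cytoplasmic RNA it stood at 22.2, 14.4 and 16.9 times Asl, with overlapping intervals.

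Arg1 (chromosome 10, 24915221 to 24927484, minus strand) was the gene with the largest decrease. Cytoplasmic RNA had 751 reads at 0 h, 125 at 12 h and 66 at 24 h. Its level there was 7.81 and 3.23 CPM at 12 h and 24 h against 34.0 CPM at 0 h, log2 ratios of −2.12 (interval −2.41 to −1.85) and −3.40 (−3.78 to −3.03). At 24 h it was 1 of the 789 genes called lower among 11748, a share of 6.72%. Between the treated times it was 2.42-fold lower at 24 h than at 12 h (log2 ratio −1.28, interval −1.73 to −0.83), a call lost on log2(TPM + 1) (−0.84).

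Nuclear Arg1 was lower by less. It had 214, 99 and 96 nuclear reads at 0, 12 and 24 h, and its level was 6.42 and 6.54 CPM at 12 h and 24 h against 13.0 CPM at 0 h. The log2 ratios, −1.01 (interval −1.37 to −0.66) and −0.99 (−1.35 to −0.63), fell on either side of the 2-fold line, so that the first was called and the second was not. The 12 h call was lost with a pseudocount of 1 CPM (−0.91), and the 24 h ratio was called under total-count scaling (−1.29). Nuclear Arg1 did not differ between 24 h and 12 h beyond counting error (0.03, −0.39 to 0.45).

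Arg2 (chromosome 12, 79130777 to 79156301, plus strand), the mitochondrial arginase, had 156, 163 and 108 nuclear reads and 20, 15 and 23 cytoplasmic reads at 0, 12 and 24 h. Its nuclear log2 ratios were 0.16 (interval −0.16 to 0.49) at 12 h and −0.36 (−0.73 to 0.00) at 24 h, with no difference detectable at this depth, and in cytoplasmic RNA it was below the minimum. Exons of Vti1b and Gm48780 on the other strand overlap 28.1% of its length, and no source used here says whether counting used strand, so its reads are uncertain. Per kb of exon, cytoplasmic Arg1 exceeded Arg2 by 24.1-fold (15.5 to 39.6) at 0 h, 5.34-fold (3.12 to 9.83) at 12 h and 1.84-fold (1.13 to 3.10) at 24 h. In nuclear RNA Arg1 stood at 0.879 of Arg2 (0.712 to 1.09) at 0 h, 0.389 at 12 h and 0.570 at 24 h.

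The order of Nos2 and Arg1, the synthase and the arginase that draw on the same substrate, was opposite in treated and untreated cells. Per kb of exon, cytoplasmic Nos2 stood at 2.99 times Arg1 (interval 2.47 to 3.64) at 12 h and 8.25 times (6.43 to 10.7) at 24 h, against 0.0982 (0.0817 to 0.117) at 0 h. In nuclear RNA it stood at 3.61 times (2.92 to 4.50) and 5.72 times (4.64 to 7.13), against 0.276 (0.219 to 0.348). The intervals of treated and untreated groups were far apart, and deposited TPM, in which the order within a group can also be read, gave 9.83 TPM of Nos2 and 5.25 TPM of Arg1 in cytoplasmic RNA at 12 h, against 2.34 TPM and 38.2 TPM at 0 h.

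Odc1 (chromosome 12, 17544794 to 17551505, plus strand) was called higher in both fractions at both times. It had 813, 3410 and 3518 nuclear reads and 2747, 9264 and 10320 cytoplasmic reads at 0, 12 and 24 h. In nuclear RNA its level was 221 and 240 CPM at 12 h and 24 h against 49.2 CPM at 0 h, log2 ratios of 2.17 (interval 2.06 to 2.28) and 2.28 (2.17 to 2.40). In cytoplasmic RNA it was 579 and 505 CPM against 124 CPM, log2 ratios of 2.22 (2.16 to 2.28) and 2.02 (1.96 to 2.08). The level hardly differed between the treated times, with log2 ratios at 24 h against 12 h of 0.12 in nuclear and −0.20 in cytoplasmic RNA.

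Of the 50-base words of Odc1, 24.3% also occur in other genes, which are 15 annotated pseudogenes and the protein-coding AW146154. AW146154 holds 6.45% of the words and had 704, 510 and 597 nuclear reads at 0, 12 and 24 h, and its reads were left out of the sum below. The 15 pseudogenes held 461, 792 and 1037 nuclear reads and 1004, 3969 and 4157 cytoplasmic reads at 0, 12 and 24 h. With the reads of the pseudogenes added, a sum chosen after seeing the data, the nuclear log2 ratios were 1.82 and 2.01 and the cytoplasmic ones 2.28 and 2.06. Odc1 thus remained called in all 4 comparisons with 0 h. Per kb of exon, Odc1 exceeded Arg1, the cytosolic source of its substrate, by 48.5-fold and 102-fold in cytoplasmic RNA at 12 h and 24 h, against 2.39-fold at 0 h.

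No gene of the polyamine list, which does not hold Odc1, was called with a ratio as large as that of Odc1 from its own reads. With the pseudogene reads added, Odc1 was at 1.82 (interval 1.73 to 1.91) in nuclear RNA at 12 h, close to the 1.84 of Srm. Of 20 listed genes of polyamine synthesis and breakdown, 18 were compared in nuclear RNA, with 1 called higher (Srm) and 1 lower (Sat2) at 12 h and 2 higher (Srm, Dohh) at 24 h. In cytoplasmic RNA, of 17 compared, 2 were lower (Paox, Atp13a2) at 12 h, and 1 was higher (Adi1) and 1 lower (Paox) at 24 h. These are 11.1% of the list in nuclear RNA, beside 14.6% and 13.6% of all genes, and 11.8% in cytoplasmic RNA, beside 20.6% and 17.1%, so the list had no more calls than genes at large. The list's medians lay between 0.02 and 0.06. Srm, spermidine synthase, which acts next after Odc1, was at 90.3 and 79.0 CPM in nuclear RNA at 12 h and 24 h against 25.1 CPM at 0 h, log2 ratios of 1.84 (interval 1.69 to 2.01) and 1.65 (1.49 to 1.82). Its cytoplasmic ratios, 0.97 and 0.63, were under 2-fold.

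Paox, a peroxisomal oxidase that breaks down acetylated polyamines, was at 9.75 and 10.5 CPM in cytoplasmic RNA at 12 h and 24 h against 27.9 CPM at 0 h, log2 ratios of −1.51 (interval −1.78 to −1.26) and −1.41 (−1.64 to −1.19). Adi1, an enzyme of the methionine salvage that recycles a by-product of polyamine synthesis, was at a log2 ratio of 1.03 in cytoplasmic RNA at 24 h. Dohh, which completes the spermidine-derived hypusine of eIF5A, was at 1.13 (0.93 to 1.33) in nuclear RNA at 24 h, but 47.5% of its exon length overlaps Gm48551 and its reads are uncertain. In the 15 listed genes of the proline and glutamate branch, to which ornithine also leads, 1 of 14 was called in nuclear RNA at 12 h (Glud1, higher) and 1 of 13 in cytoplasmic RNA at 12 h (Aldh18a1, higher, under the minimum at 0 h), shares of 7.14% and 7.69% beside 14.6% and 20.6% of all genes. None was called at 24 h against 0 h in either fraction.

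Acod1 (chromosome 14, 103046977 to 103056573, plus strand) had the highest level of the 10 genes per kb of exon in every group, though Slc7a1 had more reads than Acod1 at 0 h in both fractions. It had 4018, 55583 and 28809 nuclear reads and 10987, 96595 and 58257 cytoplasmic reads at 0, 12 and 24 h. In nuclear RNA its level was 3605 and 1963 CPM at 12 h and 24 h against 243 CPM at 0 h, log2 ratios of 3.89 (interval 3.84 to 3.94) and 3.01 (2.96 to 3.06). In cytoplasmic RNA it was 6035 and 2848 CPM against 498 CPM at 0 h, log2 ratios of 3.60 (3.57 to 3.63) and 2.52 (2.49 to 2.55). By reads it ranked 406th of all genes in cytoplasmic RNA at 0 h, 7th at 12 h and 13th at 24 h, where it took 0.0491%, 0.584% and 0.298% of the reads.

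Acod1 was past its highest measured level by 24 h. At 24 h against 12 h its log2 ratio was −1.08 (interval −1.10 to −1.07) in cytoplasmic RNA, a 2.12-fold lower level, and −0.88 (−0.90 to −0.86) in nuclear RNA. The cytoplasmic call was lost under total-count scaling (−0.97) and on log2(TPM + 1) (−0.88), and the nuclear ratio was called on log2(TPM + 1) (−1.18). Nos2, by contrast, had its highest level at 24 h in both fractions, and per kb of exon Acod1 over Nos2 in nuclear RNA was 57.8, 132 and 44.5 at 0, 12 and 24 h. Of the 10 genes, none was called in nuclear RNA at 24 h against 12 h, where 3.02% of all genes were called (1.83% higher, 1.19% lower). In cytoplasmic RNA 2 of 8, Acod1 and Arg1, were called lower, against 4.79% of all genes called (2.9% higher, 1.89% lower).

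Among 28 listed genes for the substrate, targets and removal of itaconate, 3 of 26 were called higher in nuclear RNA at 12 h (Cs, Slc25a1, Atf3), and 5 higher and 1 lower at 24 h, the lower being Clybl at −1.13, an enzyme of itaconate breakdown. In cytoplasmic RNA 5 of 23 were called at each time, 4 higher (Idh1, Idh3a, Sdhc, Atf3) and 1 lower (Idh2). These are 11.5% and 23.1% of the list in nuclear RNA at 12 h and 24 h, beside 14.6% and 13.6% of all genes, and 21.7% in cytoplasmic RNA, beside 20.6% and 17.1%, close to the share of genes at large except in nuclear RNA at 24 h. Clybl and Atf3 in nuclear RNA and Idh1, Idh3a and Atf3 in cytoplasmic RNA were under the minimum in the group where they were lower. The list's medians were 0.06 and 0.31 in nuclear RNA and 0.06 and −0.01 in cytoplasmic RNA. Sdhc, a membrane subunit of succinate dehydrogenase, the enzyme that itaconate inhibits, was at 27.4 and 24.4 CPM in cytoplasmic RNA at 12 h and 24 h against 8.11 CPM at 0 h, log2 ratios of 1.76 and 1.59 (the second with an interval of 1.34 to 1.84), with nuclear ratios of 0.16 at both times. Idh2, a mitochondrial isocitrate dehydrogenase, was at 37.0 and 34.2 CPM against 79.5 CPM in cytoplasmic RNA, log2 ratios of −1.10 and −1.22.

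Slc25a1, the mitochondrial citrate carrier, and Cs, citrate synthase, were called higher in nuclear RNA alone. Slc25a1 had nuclear log2 ratios of 1.35 at 12 h and 1.31 (interval 1.06 to 1.56) at 24 h and cytoplasmic ratios of 0.18 and 0.34. Cs had nuclear ratios of 1.09 (1.04 to 1.15) and 1.14 and cytoplasmic ratios of 0.08 and 0.12. At 12 h and 24 h the shift of the nuclear-to-cytoplasmic log2 ratio against 0 h was 1.30 and 1.04 for Slc25a1. It was 1.14 and 1.09 for Cs, beside medians of all genes of 0.26 and 0.17. Total-count scaling moves all nuclear ratios by −0.22 at 12 h and −0.30 at 24 h. That takes Cs under 2-fold at both times, while Slc25a1 stays past it. It moves all shifts by −0.32 and −0.46, which takes those of both genes under 2-fold, while their distance from the median stays.

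Among 21 listed factors and cytokines that are known to act upstream of Nos2, Acod1 or Arg1, 6 of 17 were called higher and none lower in nuclear RNA at 12 h, and 4 higher and 2 lower (Irf1, Ifngr1) at 24 h. In cytoplasmic RNA 7 of 14 were higher and 1 lower (Klf4) at 12 h, and 5 higher and 1 lower (Klf4) at 24 h. Called members were 35.3% of the list in nuclear RNA at both times, beside 14.6% and 13.6% of all genes, and 57.1% and 42.9% in cytoplasmic RNA, beside 20.6% and 17.1%. The list was chosen with earlier results of these data known, so these shares are no test of it. Of the 8 called in cytoplasmic RNA at 12 h, 4 (Tnf, Il1b, Il4ra, Batf) were under the minimum at 0 h and passed only through treated groups, as did Tnf and Il1b at 24 h and Il1b in nuclear RNA. In cytoplasmic RNA, Il1b, which encodes a leading inflammatory cytokine, was at 8.91 (interval 8.33 to 9.55) at 12 h and 5.84 (5.26 to 6.48) at 24 h on the log2 ratio scale, with 24 reads at 0 h. Nfkb1, an NF-kB subunit, was at 1.65 and 1.49 in cytoplasmic RNA. Cebpb, a transcription factor gene that overlaps Tmem189 on the other strand over 20.7% of its exon length, was at 1.75 and 1.42. Tnf was at 5.96 and 5.56, on 10 reads at 0 h.

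The order of levels was read per kb of exon, as CPM per kb. In cytoplasmic RNA at 0 h it ran Acod1 (187), Slc7a1 (96.9), Odc1 (36.0), Gch1 (27.2), Arg1 (15.1), Ass1 (4.31), Nos2 (1.48), Arg2 (0.626), Asl (0.194) and Slc7a2 (0.0538), with no overlap between the intervals of neighbours. At 12 h it ran Acod1 (2227), Odc1 (164), Slc7a1 (90.9), Gch1 (34.8), Nos2 (10.1), Ass1 (4.16), Arg1 (3.39), Arg2 (0.635), Asl (0.288) and Slc7a2 (0.192), and Ass1 could not be ordered against Arg1, nor Asl against either of its neighbours. At 24 h the order was the same as at 12 h, with Acod1 at 1137, Odc1 at 155 and Nos2 at 12.5 CPM per kb, and neither Arg1 (1.52) against Arg2 (0.824) nor Asl against Slc7a2 could be ordered. Compared with 0 h, Odc1 stood above Slc7a1 and Nos2 above Ass1 and Arg1 at both treated times by this measure. The order moved with the unit. Deposited TPM kept Slc7a1 above Odc1 in cytoplasmic RNA, at 130 against 114.5 TPM at 12 h and 126 against 115 TPM at 24 h. At 0 h it put Gch1 (80.6) above Odc1 (41.05). Nos2 stood above Ass1 and Arg1 at both treated times in TPM too.

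In nuclear RNA Acod1 (104), Slc7a1 (49.7) and Odc1 (16.3) led at 0 h by CPM per kb. Slc7a2 (1.25) and Ass1 (0.848) came last, without a difference between those last ones beyond counting error. In deposited TPM, Gch1 (20.9) and Arg2 (14.8) stood above Odc1 (12.3) at 0 h. Nos2 was in position 8 at 0 h (1.81), position 5 at 12 h (10.1) and position 4 at 24 h (15.4 CPM per kb). In deposited TPM it stood below Arg2 at 12 h (9.95 against 13.3) and below Gch1 at 24 h (13.0 against 21.1). Arg1 was in position 6 at 0 h (6.55), where it could not be ordered against Arg2 (7.46), position 8 at 12 h (2.80), where it could not be ordered against Asl or Ass1, and position 7 at 24 h (2.69), where it could not be ordered against Asl. Slc7a1 (65.3) and Odc1 (64.4) could not be ordered at 24 h by CPM per kb, while deposited TPM stood at 81.55 and 39.2.

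Nuclear and cytoplasmic RNA were compared to see where each transcript lay. The scaling between fractions moves all such ratios together, so each is given relative to the median of all genes, which does not depend on it. By the call rule 3 of the 10 genes were higher and 7 lower in nuclear than in cytoplasmic RNA at 0 h, where 80.2% of all genes were called (47.5% higher, 32.7% lower). At 12 h 3 were higher and 7 lower, beside 75.7% of all genes called (46.4% higher, 29.3% lower), and at 24 h 3 were higher and 5 lower, beside 74.7% (45.8% higher, 28.9% lower). The counts depend on the scaling between fractions: totals without the most abundant and mitochondrial genes gave 5, 4 and 4 calls for the 10 genes. In either direction the shares of the 10 genes called were near or above those of all genes, since most genes differed between fractions, and the genes on the cytoplasmic side were 7, 7 and 5 of 10. Slc7a2, Asl and Arg2 lay on the nuclear side of the median at all times, Slc7a2 at 12 h within counting error of it, and the other 7 on the cytoplasmic side. For Asl the ratio exceeded the median by 2.17, 1.61 and 1.91 on the log2 scale at 0, 12 and 24 h.

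**Figure D4:**
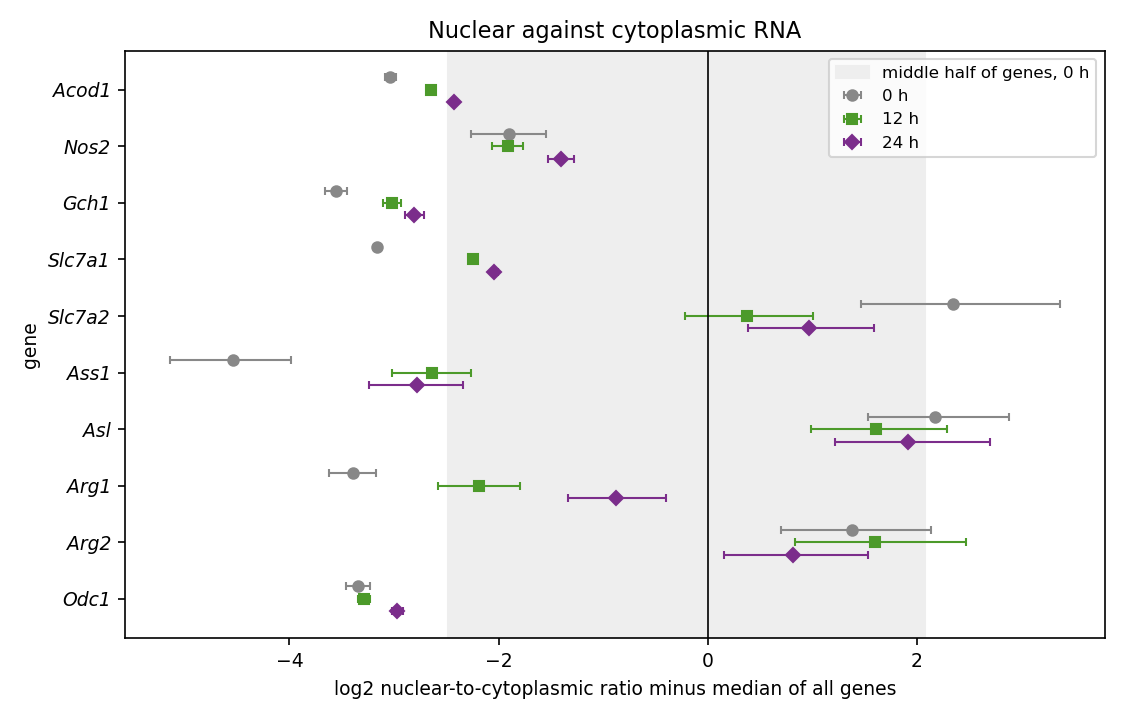
Log2 ratio of nuclear over cytoplasmic RNA for each gene minus the median of all genes compared, at 0 h (circles), 12 h (squares) and 24 h (diamonds), with 95% counting intervals; the grey band is the range between the quartiles of all genes at 0 h. Slc7a2, Asl and Arg2 lie right of 0, and Arg1 lies at −3.40, −2.18 and −0.87 at 0, 12 and 24 h.

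Among the 10 genes, the shift toward nuclear RNA was largest in value for Ass1 at 12 h and for Arg1 at 24 h. The intervals of Ass1 and Arg1 overlapped at both times, so these genes could not be ordered. The ratio of Arg1 was −3.40 (interval −3.62 to −3.18) relative to the median at 0 h, −2.18 (−2.58 to −1.79) at 12 h and −0.87 (−1.34 to −0.40) at 24 h, with intervals that did not overlap. Against 0 h its shift was 0.98 (0.54 to 1.42) above the median shift at 12 h and 2.32 (1.81 to 2.82) at 24 h, higher than that of 90.9% and 99.2% of genes. Ass1 stood at −4.54, −2.64 and −2.78 at 0, 12 and 24 h, on 30 nuclear reads at 0 h. Its shift was 1.67 (1.01 to 2.33) and 1.56 (0.86 to 2.26) above the median at 12 h and 24 h, each higher than that of 97.3% of genes. Not taken relative to the median, the Ass1 shifts were 1.93 and 1.72. With the reads of Gm5424 added they were 1.51 and 1.34, still called. For Slc7a1 the shift was 0.68 and 0.91 above the median. Slc7a2 moved the other way, by −2.20 (−3.26 to −1.15) and −1.58 (−2.63 to −0.53), on 11 cytoplasmic reads at 0 h.

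The increases in level of Nos2, Odc1 and Acod1 came without a called shift, while the decrease of Arg1 came with a called shift at both times. Nos2 had shifts of −0.24 (interval −0.62 to 0.14) and 0.30 (−0.07 to 0.67) relative to the median at 12 h and 24 h, Odc1 of −0.18 and 0.17, and Acod1 of 0.16 and 0.40. By the call rule, 2 of the 10 genes shifted toward nuclear RNA and 1 toward cytoplasmic RNA at 12 h, where 16.3% of all genes were called (10.1% toward nuclear, 6.16% toward cytoplasmic RNA). At 24 h the counts were 3 and 1, where 15.9% of all genes were called (8.38% and 7.49%). The calls toward nuclear RNA were Arg1 and Ass1 at both times and Slc7a1 at 24 h, and the call toward cytoplasmic RNA was Slc7a2 at both times. Under total-count scaling the calls of Arg1 at 12 h (0.92) and of Slc7a1 at 24 h (0.62) were lost, while their values relative to the median stay as given.

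The genes whose time course was most like that of a named gene were sought over 4 log2 ratios, 12 h and 24 h against 0 h in both fractions, among 6881 genes, by Euclidean distance. All 4 ratios share the 0 h groups. For Acod1 the nearest was Ptgs2, the inducible cyclooxygenase, at a distance of 0.754, with nuclear ratios of 3.53 and 2.53 and cytoplasmic ratios of 4.05 and 2.60 at 12 h and 24 h. Next came Bcl3 (0.954), the pseudogene Hspa9-ps1 (1.21), the chemokine gene Ccl5 (1.25) and the pseudogene Gm5297 (1.29).

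For Nos2 the nearest were Gm9115 (0.769), the mitochondrial ribosomal RNA mt-Rnr1 (0.791), Bcl3 (0.835), 4930438A08Rik (0.873) and Gm7993 (1.03). Gm9115 and Gm7993 are among the pseudogenes that share sequence with Odc1. Bcl3, which encodes an atypical member of the IkB family, had nuclear ratios of 3.18 and 3.23 and cytoplasmic ratios of 3.46 and 3.10, and is the gene near both Nos2 and Acod1. For Arg1 the nearest were farther away, at 1.29 to 1.46: Txnip, Rcbtb2, 4930404N11Rik, the oxysterol receptor gene Gpr183 and Serpinb1a. Exons on the other strand overlap 19.4% of Txnip and 67.3% of 4930404N11Rik, whose reads are uncertain. Gpr183 had nuclear ratios of −1.66 and −1.61 and cytoplasmic ratios of −3.17 and −3.03.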

How the data were processed

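RNA-seq of nuclear and cytoplasmic RNA from BV2 cells was analysed from the processed tables. The submitters' processing notes name HISAT2 2.2.0, featureCounts, DESeq2 and the build GRCm38 without saying what each was used for. The annotation release and the use of strand were not given in the sources used here. That table, as deposited, holds expected counts, the authors' means over 3 libraries: 28.1% to 34.9% of values are not whole, and all are whole after multiplying by 3, within 0.001. The authors also deposited TPM per group. All deposited columns of values were used. The planned edgeR fit needs counts per library and was not run, so no p-values are given.

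Summed reads were scaled by TMM (trimming 30% of ratios and 5% of levels) within each fraction, or over all 6 groups for nuclear against cytoplasmic RNA, with numpy 2.4.6, scipy 1.17.1 and pandas 2.3.3 under Python 3.11.15. Genes were compared if any of the groups scaled together had the CPM equal to 10 counts at the median depth. Intervals are exact Poisson (levels), exact Clopper-Pearson (ratios) and a normal approximation (shifts). The steps were tested on simulated data. Lengths, positions and shared 50-base words come from GENCODE M21; promoters are RefSeq's, GRCm38.p6.

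The members and lists were chosen with earlier results of these data known. All 10 members are named. Of each list, up to 4 members past 2-fold at 24 h against 0 h with a mean of at least 5 CPM in that fraction were given values. For Nos2, Acod1 and Arg1 the 5 nearest genes with at least 5 CPM in each fraction were given. Other list members are named only as called, or after their values were seen (Nos3, Otc, Cps1). Clybl, named as called, was given its ratio as well, and not every called member is named. Alternatives changed the scaling, unit, minimum count, pseudocount and threshold.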

Additional observations from a re-analysis of the deposited data

Results flagged for a closer look

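In 3 comparisons the nuclear and cytoplasmic log2 ratios of a gene had opposite signs, each with a counting interval that excluded 0. The difference between fractions was not tested, since no values per library were analysed. Slc7a1 at 12 h against 0 h was at 0.75 in nuclear and −0.06 in cytoplasmic RNA, a difference of 0.94 in the scaling over all 6 groups. The cytoplasmic value was close to the median of all genes, −0.04. Slc7a1 at 24 h against 0 h was at 0.69 and −0.31, a difference of 1.08. Ass1 at 24 h against 0 h was at 1.15 and −0.51, a difference of 1.72, with reads it may share with the pseudogene Gm5424; with those reads added the ratios were 1.11 and −0.16.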

How the results depend on the processing

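No paired analysis was possible because the deposited columns are group means and carry no replicate numbers; leaving out replicates was not run for the same reason. Depth limits Slc7a2, Asl and Arg2 in cytoplasmic RNA, with 11 to 29 reads per group. The all-gene median shifted by −0.22 and −0.30 (log2) for nuclear 12 h and 24 h against 0 h when totals set the scale, and by 1.41, 1.10 and 0.96 for nuclear against cytoplasmic RNA at 0, 12 and 24 h; on log2(TPM + 1) the shift was −0.47 for cytoplasmic 12 h against 0 h. Of 104 ratios of the 10 genes, calls were lost for 14 under total-count scaling, 1 under median-of-ratios scaling, 20 under totals without the most abundant and mitochondrial genes, 7 with a pseudocount of 1 CPM and 19 on log2(TPM + 1); TMM over all 6 groups (54 ratios) and no minimum count lost none. The cause was not tested.

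The ratio of nuclear over cytoplasmic Nos2 turned to 0.29 at 0 h under total-count scaling, to 0.52 at 0 h and 0.18 at 12 h under totals without the most abundant and mitochondrial genes, and to 0.0164 at 12 h on log2(TPM + 1). Members called, where the count moved by over 1.5 times: at 24 h against 0 h in nuclear RNA, 7 at 1.5-fold against 4; at 24 h against 12 h in nuclear RNA, 3 at 1.5-fold and 1 on log2(TPM + 1) against 0; at 24 h against 12 h in cytoplasmic RNA, 1 under either total-count scaling and 0 on log2(TPM + 1) against 2. For nuclear against cytoplasmic RNA the count was 5 at 0 h, 4 at 12 h and 4 at 24 h under totals without the most abundant and mitochondrial genes, 5 at 12 h under total-count scaling and 4 at 12 h on log2(TPM + 1), against 10, 10 and 8. For the shift at 24 h it was 2 on log2(TPM + 1) against 4.

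Over all genes, a pseudocount of 1 CPM gave 1610, 1489 and 121 calls for nuclear 12 h against 0 h, 24 h against 0 h and 24 h against 12 h (main 2517, 2358 and 522), 1547, 1146 and 163 for the same cytoplasmic comparisons (main 2426, 2009 and 563), and 1751 and 1629 for the shifts at 12 h and 24 h (main 2914 and 2841). The 1.5-fold threshold gave 5605, 5476, 1832, 4638, 4079, 1597, 5720 and 5843 in the same order. With no minimum count there were 3603 and 1089 for nuclear 24 h against 0 h and against 12 h, and 3987, 3630 and 1436 in cytoplasmic RNA. On log2(TPM + 1) there were 1655 for nuclear 12 h against 0 h, 290 for nuclear 24 h against 12 h (9.31% of them higher, against 60.7%) and 163 for cytoplasmic 24 h against 12 h. Total-count scaling put the share of higher calls at 44.2% for nuclear 24 h against 12 h, at 73.4% against 60.6% for cytoplasmic 24 h against 12 h, at 78.9%, 80.3% and 78.9% against 59.2%, 61.3% and 61.3% for nuclear against cytoplasmic RNA at 0, 12 and 24 h, and at 28.0% and 10.1% against 62.2% and 52.8% for the shifts.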
